A study of Arabidopsis thaliana with 17 samples.

Results

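In wounded Arabidopsis hypocotyls, 101 genes of the 28642 in the table had a transcript level 3 h after cutting that stood above every other time sampled. They were chosen from the mean RPKM (read counts divided by gene length and by sequencing depth) of each time: the 3 h mean had to be at least 5, and the 3 h mean plus 1 had to be at least 2 times the mean plus 1 at each of 0, 1, 6, 12 and 24 h. Because the choice read every 3 h value, levels at 3 h are given below as a description, without tests; tests compare the other times. The same rule set for the other times gave 495 genes for 0 h, 657 for 1 h, 80 for 6 h, 28 for 12 h and 124 for 24 h.

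Arabidopsis thaliana was raised in darkness on MS-0 plates, the etiolated hypocotyls (the pale, elongated seedling stems) were cut, and the cut hypocotyls stayed in the dark on MS-0 plates for 0 to 24 h. RNA was read with a stranded mRNA kit in 17 libraries, 3 at each of 0, 1, 3, 6 and 12 h and 2 at 24 h. None of the libraries is labelled as uncut hypocotyls kept equally long, so wounding and time on the plate cannot be told apart. The labels name no genotype, age or plant batch and do not say whether libraries of a time came from separate plants, so p-values measure the spread between these libraries, which may be technical.

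A cut exposes cells to damage signals. Among these are Pep peptides, which are released from PROPEP precursors and read by PEPR receptors, and which switch on defence genes in neighbouring cells. Such signals reach WRKY and MYB transcription factors; WRKY proteins bind the W box, and MYB51 drives the synthesis of indole glucosinolates, sulphur-rich defence compounds that IGMT methyltransferases and the myrosinase PEN2 modify and cleave. PAL enzymes open the phenylpropanoid pathway, which supplies lignin for sealing wounded walls. Genes for PROPEP, WRKY, MYB51, IGMT, PEN2 and PAL proteins are among the 101, and genes for the PEPR receptors are not.

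The libraries held 7717255 to 20740957 mapped reads, recovered from the steps between low RPKM values, and 3 reads on a transcript of 1 kb correspond to 0.145 to 0.389 RPKM, for counting error only. A member had at least 25 reads in each 3 h library. Of 9 lists of cell type markers, root hair genes summed to at most 2.34 RPKM and shoot apex genes to at most 3.06 RPKM in any library, while xylem, phloem, epidermis and endodermis genes were present at every time. Epidermis genes summed to 64.3 to 71.7 RPKM at 3 h, against 171 to 232 RPKM at 0 h. At 0 h the sums of endodermis genes spread from 23.5 to 125 RPKM and those of elongation genes from 584 to 1130 RPKM. Light-harvesting genes reached 118 RPKM in the highest 12 h library and at most 5.50 RPKM outside 12 h. The 5 seed storage genes summed to 3.08 to 11.3 RPKM at 3 h, against 0.321 to 0.426 RPKM at 0 h and at most 4.94 RPKM elsewhere. No marker was a member, and the part of these differences in the levels below was not tested. In such bulk samples, fewer cells of a type and less RNA per cell cannot be told apart.

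The 101 genes had a high level at 3 h and lower levels at the other times, as the rule required. The medians of their mean levels were 3.39, 10.6, 64.2, 13.5, 5.61 and 4.70 RPKM at 0, 1, 3, 6, 12 and 24 h. Measured from the 0 h level, the median gene had reached 14.6% of its 3 h excess at 1 h and kept 23.6% of it at 6 h. The rule itself limits these shares, and the highest of any member were 47.7% at 1 h and 46.5% at 6 h. The next highest time was 6 h for 56 genes, 1 h for 33, 12 h for 5, 24 h for 4 and 0 h for 3. At 0 h 29 of the genes were below 1 RPKM, and at 3 h 39 reached at least 100 RPKM. The ratio of 3 h to the next highest time ran from 2.001 to 9.92 with a median of 2.44. It was at least 3 for 29 genes and at least 5 for 6.

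The 3 h libraries were close to each other, with a median coefficient of variation of 10.8% over the members. In 100 of the 101 genes every 3 h library lay above all 14 other libraries, a pattern shown by 5.08% of the 19656 tested genes; since the choice used these values, nothing is read from that difference. The exception was AT4G19720, annotated as a glycosyl hydrolase with a chitinase insertion domain, which had 2.598, 14.3 and 0.675 RPKM at 1 h, and 14.1, 18.6 and 14 after 3 h, and whose highest 1 h library exceeded the lower pair of 3 h libraries.

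**Figure D1:**
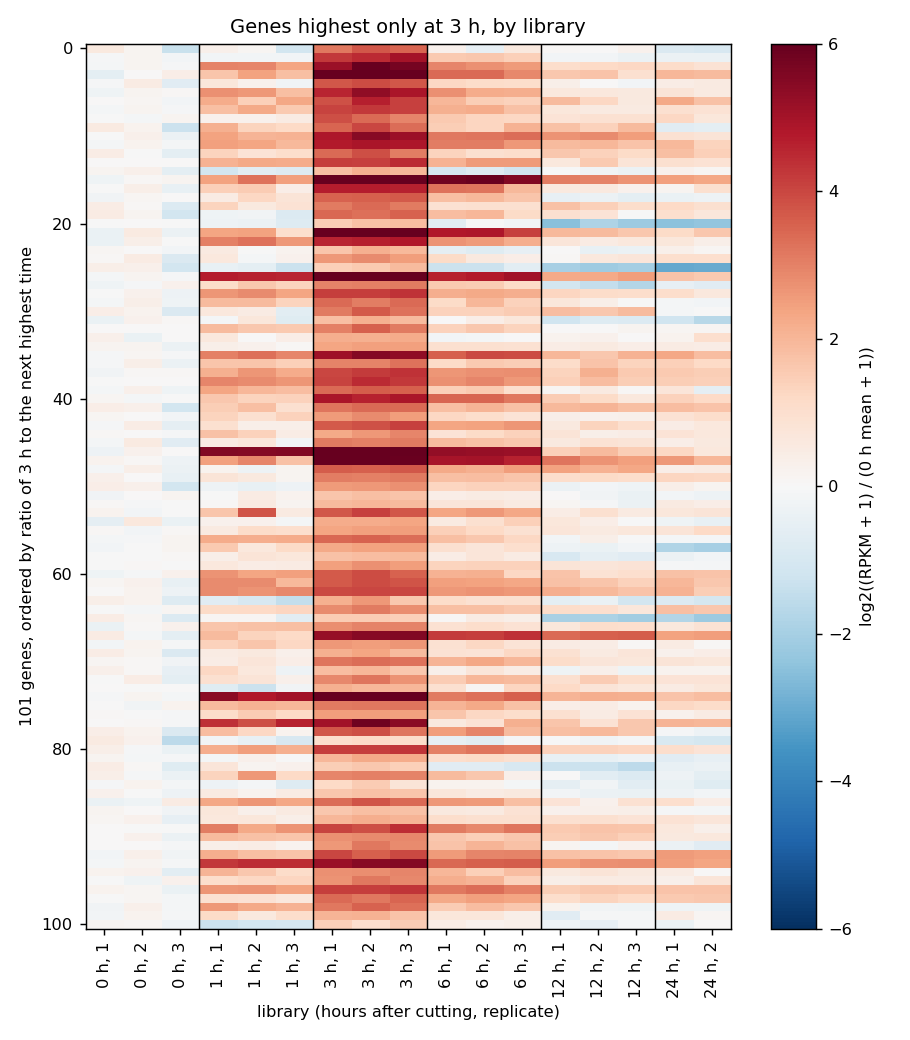
Level of each of the 101 genes (down the page, ordered by the ratio of 3 h to the next highest time) in each of the 17 libraries (across, by hours after cutting and replicate), as log2 of RPKM plus 1 over the 0 h mean plus 1. The 3 h columns are the darkest red in nearly every line, many genes are also red at 1 h and 6 h, and a few turn blue at 12 h and 24 h.

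The pattern was looked up again in libraries left out of the choice. These may not come from separate plants, so the shares show only how far the libraries repeat each other. Members were chosen anew from libraries of 2 replicate numbers and looked up in those of the number left out. Without number 1, 119 genes were chosen, of which 118 (99.2%) were highest at 3 h in the left-out libraries. Without numbers 2 and 3 in turn, 96 of 97 (99.0%) and 95 of 96 (99.0%) were. Other genes were those with a 3 h mean of at least 5 RPKM over all libraries, the left-out ones included. Of these, 14.3%, 13.6% and 16.0% were highest at 3 h in the left-out libraries. The ratio of 2 was passed again by 69, 73 and 75 of the chosen genes. Number 3 has no 24 h library, so its check covers the times to 12 h.

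Precursors of peptide signals made up 4 of the members, PROPEP1, PROPEP2 and PROPEP3, which encode elicitor peptide precursors, and PSK5, which encodes a precursor of the growth peptide phytosulfokine. PROPEP3 (AT5G64905, chr5:25939562-25940080, plus strand in TAIR10.1) had 0.496, 1.83 and 0.524 RPKM at 0 h, 9.06, 9.24 and 2.92 after 1 h, 136, 183 and 145 at 3 h, 54.2, 55.5 and 32.1 after 6 h, 6.53, 6.29 and 4.98 at 12 h, and 3.32 and 5.08 after 24 h. PROPEP2 (AT5G64890) had 0.908, 1.53 and 0.436 RPKM at 0 h, 4.22, 4.61 and 1.55 after 1 h, 50.9, 50.8 and 47.6 at 3 h, 17.6, 16.8 and 6.58 after 6 h, 1.96, 1.96 and 1.31 at 12 h, and 1.17 and 2.77 after 24 h. PROPEP1 (AT5G64900) had 4.21, 5.93 and 3.70 RPKM at 0 h, 28.1, 21.6 and 19.3 after 1 h, 57.8, 68.3 and 67.5 at 3 h, 14.3, 15.8 and 10.4 after 6 h, 5.17, 7.16 and 4.94 at 12 h, and 8.24 and 2.81 after 24 h. In each of the 3 genes the lowest 3 h library lay above the highest library of any other time. PROPEP1 averaged 23.0 ± 4.59 RPKM at 1 h against 4.61 ± 1.17 RPKM at 0 h (SD, n = 3 each), and PROPEP3 averaged 7.08 ± 3.60 RPKM at 1 h against 0.952 ± 0.765 RPKM at 0 h.

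The 3 genes lie side by side on chromosome 5 in the order PROPEP2, PROPEP1, PROPEP3, with 1466 and 1386 bases between neighbours. Their coding sequences were 57.9% to 73.8% identical. A stretch of 69 coding bases of each is shown because these 3 precursors shared the same time of peak. It was placed by the best match to the last 24 coding bases of PROPEP1, not by an annotation of the peptide. PROPEP2 matched at 21 of the 24 bases and PROPEP3 at 15, so the stretch need not span the whole elicitor peptide. Capitals mark the 30 of 69 bases that all 3 have in common, of which 13 fall in the last 24. All are on the plus strand of TAIR10.1 as held by RefSeq, at chr5:25937868-25937936 for PROPEP1, chr5:25935235-25935303 for PROPEP2, where 39 coding bases follow before the stop, and chr5:25939853-25939921 for PROPEP3.
PROPEP1: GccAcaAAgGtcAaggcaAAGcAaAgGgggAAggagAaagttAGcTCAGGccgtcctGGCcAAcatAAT
PROPEP2: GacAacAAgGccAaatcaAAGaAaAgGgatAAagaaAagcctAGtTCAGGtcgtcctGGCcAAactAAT
PROPEP3: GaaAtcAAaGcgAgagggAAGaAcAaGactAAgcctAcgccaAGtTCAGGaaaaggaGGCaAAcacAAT

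PROPEP4, PROPEP5 and PROPEP6, the other family genes looked up by symbol, did not peak at 3 h. PROPEP4, also on chromosome 5, averaged 1.56, 81.1, 7.63, 2.67, 2.35 and 1.42 RPKM at 0, 1, 3, 6, 12 and 24 h, highest at 1 h. PROPEP6 averaged 8.82, 4.78, 5.49, 11.4, 8.53 and 13.3 RPKM at the same times, and PROPEP5 stayed below 1 RPKM. PSK5 averaged 387 ± 23.2 RPKM at 3 h, and 156 ± 11 RPKM at 12 h against 54.1 ± 11.6 RPKM at 0 h (SD, n = 3 each). In the limma fit over all tested genes, described with the comparisons of times below, its difference of 12 h from 0 h was 1.53 (SE 0.119, adjusted p 2.34e-08) on the log2 scale, with Benjamini-Hochberg adjustment.

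**Figure D2:**
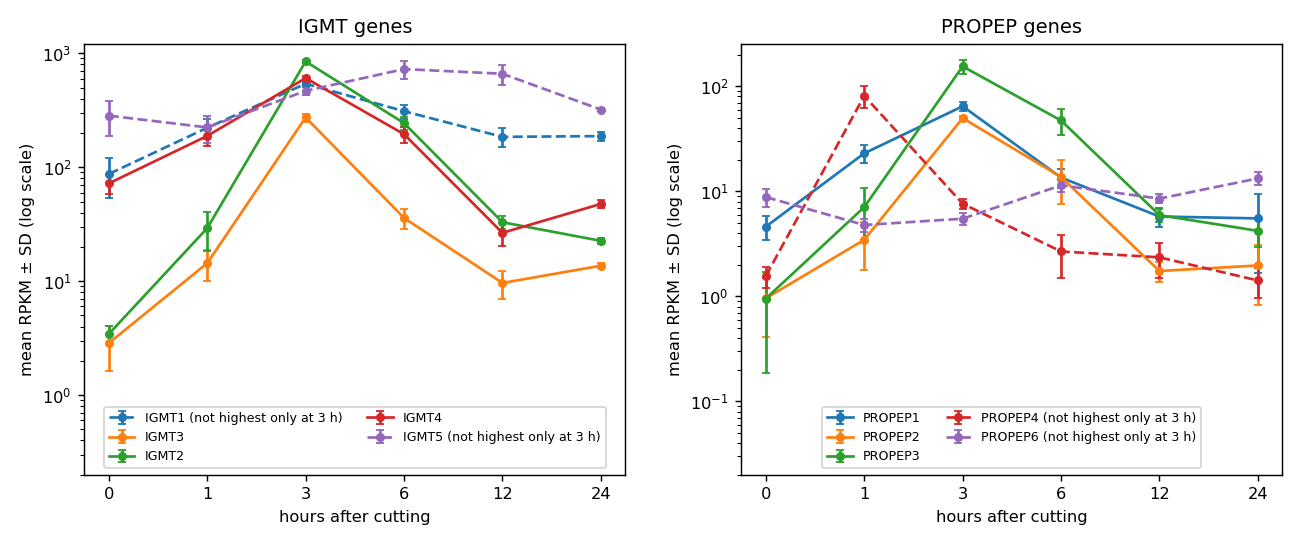
Mean RPKM on a log axis against hours after cutting for the IGMT genes (left) and the PROPEP genes (right), with bars of 1 SD over the libraries of a time. Solid lines are members and dashed lines are family genes outside the rule; IGMT2, IGMT3 and IGMT4 and PROPEP1 to PROPEP3 peak at 3 h, PROPEP4 peaks at 1 h with 81.1 RPKM, and IGMT5 is highest at 6 h.

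Transcription factors and their partners gave 8 members. WRKY53 (AT4G23810, chr4:12392370-12393982, minus strand), a regulator of leaf ageing and defence, had 4.46, 6.99 and 2.52 RPKM at 0 h, 7.96, 5.68 and 3.92 after 1 h, 74.4, 85.2 and 74.9 at 3 h, 12.5, 11.1 and 10.9 after 6 h, 6.21, 4.71 and 4.13 at 12 h, and 6.80 and 7.09 after 24 h. The 3 h libraries were all above the others, of which the highest was 12.5 RPKM at 6 h. WRKY66 (AT1G80590) was listed at 0 in all 0 h libraries and had 3.29, 3.81 and 3.65 RPKM at 1 h, 16.5, 16.0 and 21.4 after 3 h, 3.24, 4.87 and 4.88 at 6 h, 0.538, 1.98 and 0.720 after 12 h, and 0.961 and 0.842 at 24 h. Against a floor of 3 reads over the 0 h libraries together, its 1 h mean of 3.58 RPKM was at least 30.8-fold higher than 0 h.

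MYB51 (AT1G18570, chr1:6389399-6391386, plus strand), the activator of indole glucosinolate genes, had 28.2, 35.8 and 33.2 RPKM at 0 h, 45.8, 78.8 and 56.4 after 1 h, 389, 405 and 424 at 3 h, 118, 128 and 105 after 6 h, 22.6, 25.2 and 21.4 at 12 h, and 24.3 and 26.0 after 24 h. All 3 h libraries lay above the rest, and the 12 h libraries lay below all 0 h libraries. ZAT11, a zinc finger protein gene, averaged 0.337, 10.3, 52.4, 18.2, 4.01 and 4.80 RPKM at 0, 1, 3, 6, 12 and 24 h. A gene for a VQ motif protein (AT1G78410), of a family that binds WRKY factors, averaged 0.410, 10.2, 35.0, 6.90, 1.16 and 1.03 RPKM. The growth regulators HEC1 (a bHLH protein), HB30 (a homeobox protein) and ZPR1 (a small leucine zipper protein) had 3 h means of 11.02 ± 0.525, 10.4 ± 2.04 and 28.4 ± 1.91 RPKM (SD, n = 3 each). Of the 67 genes with a WRKY symbol in the table, 38 had a 3 h mean of at least 5 RPKM and 2 were members. Of 120 with a MYB symbol 1 was a member, and of 83 NAC and 55 ethylene response factor symbols 0 were. Over all genes 101 of 28642 were members, 101 of 12945 at this level, and counts of 0 or 1 in families of this size are not read as a difference from that.

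**Figure D3:**
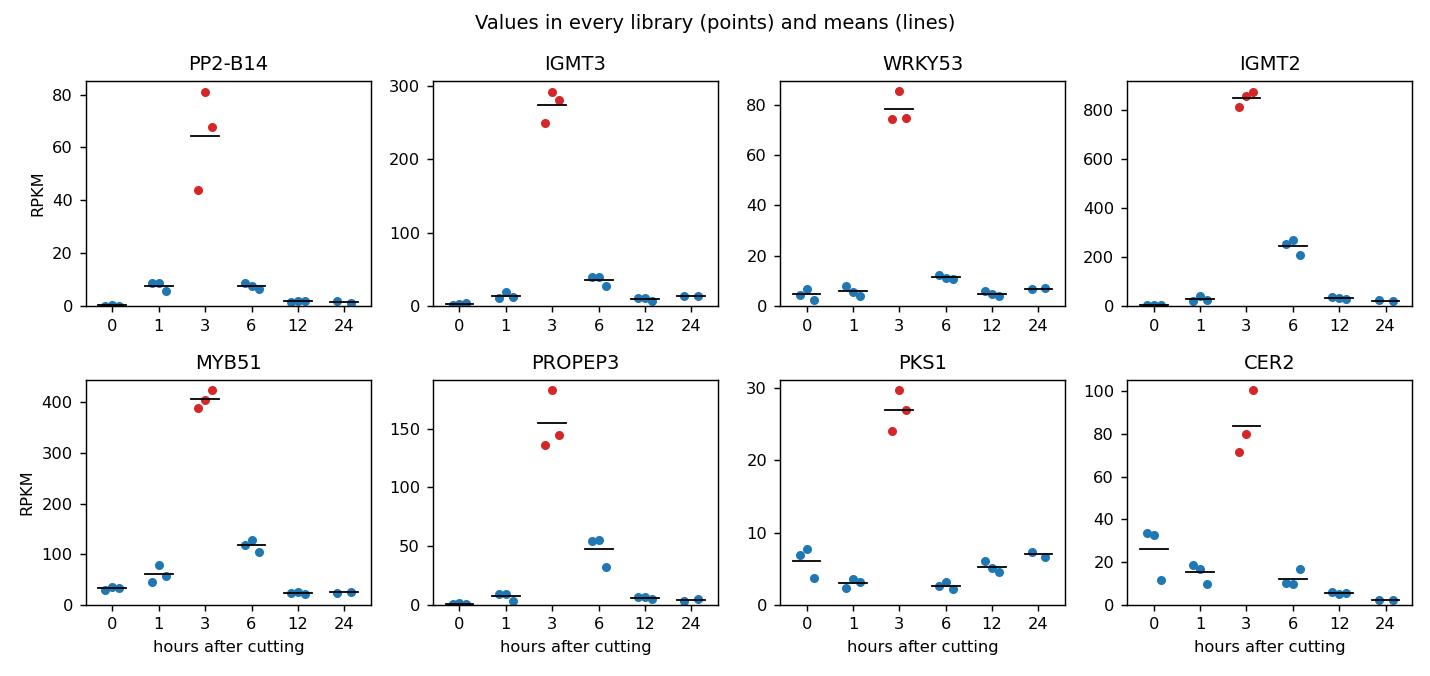
RPKM in every library (points; red at 3 h, blue at other times) and the mean of each time (lines) for 8 members, against hours after cutting. The 3 h points stand clear of all others in each panel; IGMT2, MYB51 and PROPEP3 keep part of the level at 6 h, PKS1 dips at 1 h and 6 h, and CER2 ends at 2.26 RPKM at 24 h, the lowest of its means.

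The W box, the sequence bound by WRKY proteins, was counted in the 250 bases before the start of each gene because WRKY genes were among the members. TTGACC or TTGACT, read on both strands, was present in 48 of the 101 promoters (47.5%), against 28.5% of 26704 promoters of protein-coding genes and 29.2% of those of genes with at least 5 RPKM at 3 h. It was present at least 2 times in 15.8% of members and 6.21% of all promoters. The GCC box GCCGCC was in 1.98% of members and 1.85% of all, the G box CACGTG in 4.95% and 6.58%, the rapid stress element CGCGTT in 1.98% and 2.59%, and the TGA core TGACG in 21.8% and 18.6%. The AC element ACCTAC or ACCAAC of MYB proteins was in 20.8% and 15.3%, and at least 2 times in 5.94% of members (6 genes) and 1.80% of all; the telo box AACCCTA was in 3.96% and 6.50%, and the evening element AATATCT in 8.91% and 10.1%. The W box letters and TGACG cannot match at the same place, since the base after TGAC differs. Members of the IGMT, PROPEP and PP2-B families that lie side by side were each counted, so the 101 promoters may not be separate cases. These shares are descriptions of letters and do not show binding.

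The promoters with the most W boxes among the 20 members with a symbol of largest ratio are shown, 4 in all, with ties settled by the larger ratio, as 250 bases up to the annotated start in the gene's own direction. Capitals mark the W box on either strand. PROPEP3 held 4 W boxes, with first bases 222, 198, 74 and 54 bases before the start (chr5:25939312-25939561, plus strand). PP2-B14 held 2, at 25 and 6 bases (chr1:21063048-21063297, minus strand), WRKY53 held 2, at 219 and 71 bases (chr4:12393983-12394232, minus strand), and PP2-B13 held 2, at 115 and 76 bases (chr1:21057578-21057827, minus strand), all read from TAIR10.1 in RefSeq.
PROPEP3: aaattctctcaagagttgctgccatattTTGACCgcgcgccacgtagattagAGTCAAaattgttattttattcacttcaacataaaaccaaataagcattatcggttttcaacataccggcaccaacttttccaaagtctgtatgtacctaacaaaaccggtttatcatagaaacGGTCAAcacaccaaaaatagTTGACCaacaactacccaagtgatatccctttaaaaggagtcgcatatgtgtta
PP2-B14: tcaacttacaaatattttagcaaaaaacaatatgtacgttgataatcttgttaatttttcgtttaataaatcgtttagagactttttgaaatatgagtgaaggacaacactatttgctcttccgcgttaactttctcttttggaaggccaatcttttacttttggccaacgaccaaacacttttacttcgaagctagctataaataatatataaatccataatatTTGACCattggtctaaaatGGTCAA
WRKY53: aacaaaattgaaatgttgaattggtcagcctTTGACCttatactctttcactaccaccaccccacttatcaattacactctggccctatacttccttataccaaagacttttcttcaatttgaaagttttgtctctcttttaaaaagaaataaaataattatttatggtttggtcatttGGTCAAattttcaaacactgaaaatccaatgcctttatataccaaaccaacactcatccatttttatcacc
PP2-B13: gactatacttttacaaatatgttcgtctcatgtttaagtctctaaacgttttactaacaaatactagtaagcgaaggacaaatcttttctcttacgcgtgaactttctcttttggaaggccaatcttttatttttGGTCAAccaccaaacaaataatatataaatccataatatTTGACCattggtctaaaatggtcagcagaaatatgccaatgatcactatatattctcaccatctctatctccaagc

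Parts of ubiquitin ligases, which mark proteins for breakdown, gave 7 members, led by PP2-B14 and PP2-B13, F-box genes of the phloem protein 2 group. PP2-B14 (AT1G56250) had 0.168, 0.445 and 0.222 RPKM at 0 h, 8.93, 8.62 and 5.63 after 1 h, 43.8, 81.0 and 67.9 at 3 h, 8.89, 7.69 and 6.59 after 6 h, 1.66, 1.89 and 2.002 at 12 h, and 1.78 and 1.34 after 24 h, and its ratio of 7.47 was the largest among members with a gene symbol. PP2-B13 (AT1G56240), its neighbour on chromosome 1 with 3945 bases between, had 0.253, 0.669 and 0.557 RPKM at 0 h, 9.08, 7.97 and 4.30 after 1 h, 34.5, 59.2 and 43.9 at 3 h, 9.03, 6.04 and 5.72 after 6 h, 1.33, 1.34 and 1.23 at 12 h, and 1.56 and 1.19 after 24 h. In both genes the 3 h libraries lay above all others and the 1 h and 6 h libraries overlapped each other. Their coding sequences were 90.8% identical, and how the authors placed reads that match both is not given in the sources used here, so the split between them is uncertain. The ligase genes RING1 and RHA1A averaged 18.6 ± 2.35 and 6.38 ± 1.96 RPKM at 3 h (SD, n = 3 each). A further phloem protein 2 gene, PP2-A5, averaged 0.107, 3.53, 19.9, 2.45, 1.80 and 3.49 RPKM at 0, 1, 3, 6, 12 and 24 h.

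Receptors, immune proteins and other signalling proteins gave 14 members. AT3G48450, of the family of RIN4, a protein guarded by immune receptors, had 1.01, 2.002 and 1.55 RPKM at 0 h, 119, 114 and 116 after 1 h, 278, 300.2 and 306 at 3 h, 97.7, 94.1 and 90.1 after 6 h, 5.76, 8.44 and 6.01 at 12 h, and 4.90 and 2.97 after 24 h. All libraries at 1, 3 and 6 h were far above those at 0, 12 and 24 h. MLO12 (AT2G39200), a membrane protein of the family tied to powdery mildew susceptibility, had 0.806, 0.619 and 0.275 RPKM at 0 h, 7.55, 10.8 and 4.32 after 1 h, 113, 132 and 95.2 at 3 h, 46.8, 48.9 and 37.8 after 6 h, 13.6, 9.06 and 7.50 at 12 h, and 8.39 and 5.24 after 24 h, so its 6 h libraries lay above all of its 1 h libraries. Genes of the Toll and interleukin receptor (TIR) domain type were AT1G72900, TIR and AT3G04220, with 3 h means of 175 ± 8.31, 13.4 ± 0.719 and 23.7 ± 2.34 RPKM. The receptor kinase genes CRK29, LECRKA4.1, WAKL2 and AT1G51805 had 246, 6.68, 13.2 and 23.9 RPKM at 3 h. CRK29 shares 470 bases on the same strand with AT4G21400, at 68.8 RPKM at 3 h, so its level is uncertain. EDA39, a calmodulin-binding protein gene, averaged 8.27, 33.9, 163, 37.2, 12.9 and 16.4 RPKM at 0, 1, 3, 6, 12 and 24 h, and AT5G39670, for a calcium-binding EF-hand protein, averaged 5.003, 29.5, 60.2, 18.0, 4.68 and 4.02 RPKM.

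The 30 metabolic enzymes were the largest group. Indole glucosinolate methyltransferases were prominent. IGMT2 (AT1G21120, chr1:7395179-7396823, minus strand) had 2.73, 3.66 and 3.94 RPKM at 0 h, 22.8, 41.8 and 23.1 after 1 h, 810.1, 858 and 874 at 3 h, 254, 269 and 209 after 6 h, 36.3, 34.3 and 28.1 at 12 h, and 23.7 and 21.5 after 24 h. IGMT3 (AT1G21110) had 1.60, 2.94 and 4.04 RPKM at 0 h, 11.2, 19.4 and 12.5 after 1 h, 249, 292 and 279.7 at 3 h, 40.2, 39.5 and 27.9 after 6 h, 10.8, 11.6 and 6.54 at 12 h, and 14.2 and 13.2 after 24 h. IGMT4 (AT1G21130) had 60.1, 69.02 and 87.3 RPKM at 0 h, 155, 225 and 185 after 1 h, 583, 594 and 639 at 3 h, 213, 212 and 159 after 6 h, 32.7, 26.3 and 20.7 at 12 h, and 50.4 and 44.9 after 24 h. The 3 h libraries of each gene lay above all others, and the 12 h libraries of IGMT4 lay below all of its 0 h libraries, whereas those of IGMT2 and IGMT3 lay above.

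IGMT1 (AT1G21100), next in the same row on chromosome 1, had a 3 h mean of 540.2 ± 13.3 RPKM and missed the rule, with 310.2 ± 44.4 RPKM at 6 h and a ratio of 1.74. The coding sequences of the 4 genes were 92.5% to 97.4% identical, so the split of reads among them is uncertain. IGMT5 (AT1G76790), elsewhere on chromosome 1, averaged 283, 224, 468, 726, 661 and 321 RPKM at 0, 1, 3, 6, 12 and 24 h and was highest at 6 h. PEN2 (AT2G44490), the myrosinase that cleaves indole glucosinolates in defence, averaged 100.3, 121, 385, 158, 95.1 and 139 RPKM at these times, a smaller excess on a high level.

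Of a list of 33 genes for indole metabolites (glucosinolates, the phytoalexin camalexin, and tryptophan synthesis), 4 were members, IGMT2, IGMT3, IGMT4 and MYB51. Of the other 28 that were tested, 21 were higher and 0 lower at 1 h than at 0 h in the limma fit (Benjamini-Hochberg adjusted), where 18.2% of all tested genes were higher and 54.7% lower. At 6 h 26 were higher and 0 lower, where 30.2% and 37.1% of all tested genes were. Among these 28, the highest mean was that of 1 h for 3 genes, of 3 h for 9, of 6 h for 14, of 12 h for 1 and of 24 h for 1. The shares of all tested genes highest at each time are not given here, so nothing is read from these counts. The camalexin enzyme PAD3 averaged 0.465, 12.7, 138, 209, 33.7 and 13.3 RPKM at 0, 1, 3, 6, 12 and 24 h, and TSA1, a tryptophan synthase subunit, averaged 51.8, 134, 687, 1223, 456 and 356 RPKM, both highest at 6 h. CYP81F2, which makes the substrate of the IGMT enzymes, averaged 2.94, 40.9, 119.6, 67.8, 11.2 and 10.6 RPKM, highest at 3 h with a ratio of 1.75, under the rule's 2.

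**Figure D4:**
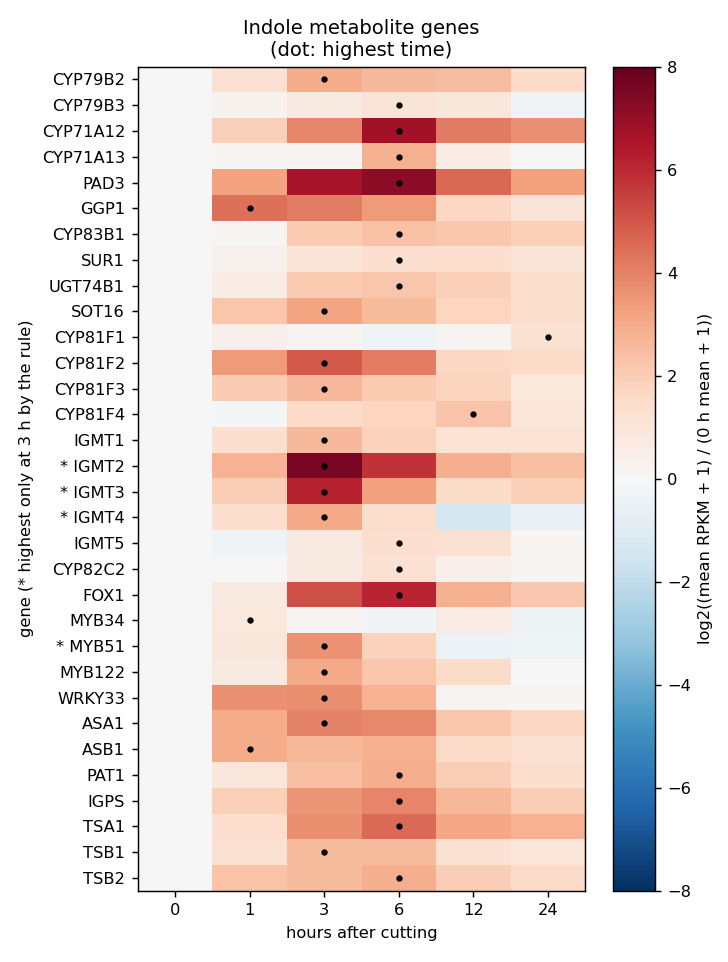
Mean level of 32 tested genes of indole metabolite synthesis (down the page; a star marks members) at each time (across, hours after cutting), as log2 of the mean RPKM plus 1 over the 0 h mean plus 1; a dot marks the highest time. Dots fall mostly at 3 h and 6 h, and the members IGMT2, IGMT3, IGMT4 and MYB51 pale at 12 h and 24 h.

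Phenylpropanoid enzymes included PAL2 and CCR2. PAL2 (AT3G53260), a phenylalanine ammonia-lyase, had 62.6, 58.5 and 40.3 RPKM at 0 h, 347, 357 and 293 after 1 h, 964, 977 and 1079 at 3 h, 490.2, 552 and 447 after 6 h, 149, 168 and 163 at 12 h, and 178 and 179.5 after 24 h. CCR2 (AT1G80820), a cinnamoyl-CoA reductase of lignin synthesis, had 8.12, 10.1 and 8.33 RPKM at 0 h, 188, 208 and 209 after 1 h, 362, 434 and 442 at 3 h, 106, 118 and 121 after 6 h, 54.3, 65.2 and 67.1 at 12 h, and 55.9 and 49.8 after 24 h. Neither gene returned to its 0 h range by 24 h, and CCR2 was higher at 1 h than at 6 h in every library. LAC1, of the laccase family, whose members oxidise lignin units, averaged 11.1, 8.19, 130.1, 38.5, 17.9 and 20.7 RPKM at 0, 1, 3, 6, 12 and 24 h. Of a list of 24 phenylpropanoid, lignin, lignan and coumarin genes 2 were members. Of the other 21 tested, 7 were higher and 7 lower at 1 h than at 0 h by limma (Benjamini-Hochberg), where 18.2% and 54.7% of all tested genes were. At 6 h 19 were higher and 1 lower, where 30.2% and 37.1% of all tested genes were. The highest mean was that of 3 h for 12 of the 21, a count given without the share of all tested genes and not read as a trait. PAL1 had a ratio of 1.87 and a 3 h mean of 1275 RPKM, so it lay just outside.

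The highest 3 h level of all members was that of PRN (AT3G59220), a pirin, first found as a partner of the G protein alpha subunit. PRN had 42.8, 28.0 and 20.1 RPKM at 0 h, 116, 77.2 and 69.5 after 1 h, 1154, 1372 and 1475 at 3 h, 579.8, 554 and 650.1 after 6 h, 326, 375 and 385 at 12 h, and 164 and 175 after 24 h. Its levels at 6, 12 and 24 h all stayed above the 0 h libraries. CYP706A1, a cytochrome P450 gene, averaged 75.2, 306, 687, 312, 97.2 and 169.5 RPKM at 0, 1, 3, 6, 12 and 24 h, and ALDH2B7, a mitochondrial aldehyde dehydrogenase gene, averaged 120.3, 172, 405, 193, 149 and 113 RPKM. GAD4 (AT2G02010), a glutamate decarboxylase that makes gamma-aminobutyrate, had 0.835, 1.21 and 0.924 RPKM at 0 h, 51.4, 47.7 and 46.1 after 1 h, 155, 188 and 173 at 3 h, 48.0, 53.3 and 63.4 after 6 h, 8.72, 8.74 and 10.2 at 12 h, and 5.41 and 4.95 after 24 h, with 1 h and 6 h libraries near each other and far above 0 h. BGLU40, a beta-glucosidase gene, averaged 98.7 ± 19.6 RPKM at 3 h, against 8.65 ± 3.85 RPKM at 0 h (SD, n = 3 each). AT5G57500, of the galactosyltransferase family, was listed at 0 in all 0 h libraries and averaged 8.60 RPKM at 3 h. Of 229 genes with a cytochrome P450 symbol 1 was a member, and of 48 glutathione transferase and 58 glycosyltransferase symbols 0 were, counts that are likewise too small to read.

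Membrane carriers gave 12 members, for sugars, amino acids, peptides, nitrate and sulphate. SUC1 (AT1G71880), a sucrose-proton symporter, had 11.9, 17.3 and 11.8 RPKM at 0 h, 64.9, 50.7 and 47.1 after 1 h, 234, 177 and 227 at 3 h, 84.9, 110.2 and 115 after 6 h, 48.1, 46.7 and 44.0 at 12 h, and 85.2 and 79.0 after 24 h. PTR1, a dipeptide carrier, averaged 67.8, 98.3, 411, 177, 116 and 63.1 RPKM at 0, 1, 3, 6, 12 and 24 h, and NRT1.7, which loads nitrate into phloem, averaged 12.98, 26.3, 129, 25.9, 36.8 and 28.7 RPKM. The amino acid permease genes AAP5 and AAP6 averaged 107 ± 7.92 and 28.2 ± 3.54 RPKM at 3 h, against 24.8 ± 6.49 and 2.503 ± 0.910 RPKM at 0 h (SD, n = 3 each). Sulphate carriers were AST91 and SULTR3;4, with 23.9 and 66.1 RPKM at 3 h. PMT6, of the polyol carrier group, averaged 6.74, 20.2, 216, 80.04, 16.2 and 18.0 RPKM.

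Hydrolases, chitinases and wall proteins gave 12 members. AT5G47330, an alpha/beta hydrolase without a symbol, named here after its values were seen, had the largest ratio of all, 9.92, and had 6.20, 4.52 and 0.903 RPKM at 0 h, 4.94, 4.33 and 1.26 after 1 h, 43.2, 64.2 and 54.2 at 3 h, 4.74, 2.49 and 6.36 after 6 h, 4.17, 3.95 and 4.86 at 12 h, and 1.66 and 1.51 after 24 h. Its libraries at 0 h spread widely, and those at 3 h lay above all others. AT5G44020, an acid phosphatase of the HAD superfamily, averaged 254, 303, 972, 170.5, 213 and 297 RPKM at 0, 1, 3, 6, 12 and 24 h, high throughout. AT5G62360, an inhibitor of invertase or pectin methylesterase, had 3.44, 3.60 and 3.13 RPKM at 0 h, 92.0, 63.5 and 106 after 1 h, 142, 248 and 183 at 3 h, 5.63, 6.90 and 17.9 after 6 h, 12.8, 7.04 and 12.4 at 12 h, and 17.2 and 16.3 after 24 h, high at 1 h and 3 h and low at 6 h. The chitinase family gene AT3G47540 averaged 0.836, 10.2, 33.1, 7.51, 3.13 and 2.35 RPKM.

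The last 14 members encode other or uncharacterized proteins, such as WVD2, which binds microtubules, pEARLI4, PP2-A5 and RSH2, annotated as root hair specific, whereas root hair markers were nearly absent. RSH2 (AT1G12950) had 0.476, 0.699 and 0.418 RPKM at 0 h, 63.6, 42.4 and 49.9 after 1 h, 99.6, 126 and 121 at 3 h, 12.1, 14.3 and 17.3 after 6 h, 5.22, 5.86 and 5.73 at 12 h, and 4.01 and 4.53 after 24 h, so its 1 h and 3 h libraries stood apart from the rest. AT1G78922 had a ratio of 8.30, also named after its values were seen, with 0.224, 0.443 and 0.147 RPKM at 0 h, 22.9, 27.4 and 39.1 after 3 h, and 2.80, 2.96 and 2.38 at 6 h. It is overlapped over 783 bases by AT1G78920 on the opposite strand, at 34.7 RPKM at 3 h, and reads of the 2 cannot be told apart if strand was not used in counting, which the sources used here do not state. In all, 30 members overlap another annotated gene, 4 of them a gene of the table on the same strand. WRKY53 shares 341 bases with AT4G23800 on the opposite strand, which stood at 6.91 RPKM at 3 h.

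Comparisons among the other times set no 3 h mean against another. They were made by limma on log2(RPKM + 1) over all 19656 tested genes with Benjamini-Hochberg adjustment, and called at an adjusted p below 0.05. All 17 libraries were in the fit, so the 3 h libraries shared in the estimate of spread behind the p-values. All 101 members passed the filter of 1 RPKM in 2 libraries, also when 3 h libraries were set aside. The rule also set upper bounds on the 0, 1, 6, 12 and 24 h means, and the comparisons with 0 h share the 0 h libraries, so the counts are read only beside those of all genes. Over all tested genes, the 1 h change had a median of -0.36 on the log2 scale, and -0.10 with median centring.

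At 1 h, 71 members were higher than at 0 h, where 18.2% of tested genes were, and 5 were lower, where 54.7% were. The members' median log2 change was 1.22. With median centring 83 were higher and 2 lower, against 4909 and 6673 of all tested genes. AT3G48450 rose by 5.56 on the log2 scale, RSH2 by 5.10, GAD4 by 4.64 and CCR2 by 4.36, with adjusted p between 1.65e-14 and 1.25e-13 for these 4. The members that fell were HB30, AST91, PKS1, AT3G49980 and LOG5. PKS1, a phytochrome kinase substrate that acts in bending of seedlings, had 6.84, 7.68 and 3.76 RPKM at 0 h, 2.36, 3.54 and 3.16 after 1 h, 24.1, 29.8 and 27.0 at 3 h, 2.56, 3.13 and 2.17 after 6 h, 6.06, 5.12 and 4.56 at 12 h, and 7.37 and 6.58 after 24 h, lower at 1 h and 6 h than at every other time. Its 1 h change was -0.78 (SE 0.191, adjusted p 0.00173). The falls of AST91, AT3G49980 and LOG5 missed the threshold with median centring (adjusted p 0.0575, 0.159 and 0.305). They also missed it in some fits with a library left out: AST91 without 0 h replicate 1 (0.0536) or 1 h replicate 3 (0.0523), AT3G49980 without 0 h replicate 1 (0.0536) or 1 h replicate 2 (0.136), and LOG5 without 0 h replicate 2 (0.0595) or 1 h replicate 3 (0.129).

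At 6 h, 88 members were higher than at 0 h, where 30.2% of tested genes were, and 4 were lower, where 37.1% were. The median log2 change was 1.58 for members, 1.62 with members listed at 0 at 0 h held at their detection bound, and -0.07 for all tested genes. IGMT2 rose by 5.79, AT3G48450 by 5.25, MLO12 by 4.87 and GAD4 by 4.81. The members that fell were CER2, PKS1, AT4G35160 and AT5G44020, with PKS1 at -0.93 (SE 0.191, adjusted p 0.000457). Without 0 h replicate 1, 2 members were lower, and CER2 (adjusted p 0.103) and AT4G35160 (0.0653) missed the threshold. CER2 also missed it without 0 h replicate 2 (0.0972), 6 h replicate 1 (0.0686) or 6 h replicate 2 (0.0728). All 71 members that were higher at 1 h were also higher at 6 h, and 15 further members were higher at 6 h but not called at 1 h, among them WRKY53 with a 6 h change of 1.22 (SE 0.244, adjusted p 0.000405). Both comparisons share the 0 h libraries, and the overlap for all tested genes is not given here, so nothing is read from it.

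At 12 h, 60 members were higher than at 0 h, where 34.4% of tested genes were, and 9 were lower, where 27.8% were. At 24 h the counts were 54 and 10, where 36.2% and 23.2% of tested genes were. Median log2 changes of members were 0.73 at 12 h and 0.59 at 24 h, against 0.06 and 0.14 for all tested genes. PRN rose by 3.60 at 12 h and 2.51 at 24 h, IGMT2 by 2.93 and 2.42, and SUC1 by 1.71 and 2.52. MLO12 rose by 2.80 at 12 h, as did the GDSL lipase gene AT5G55050 by 2.71. Without 0 h replicate 3, 15 members were lower at 12 h, and without 24 h replicate 2, 6 were lower at 24 h.

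A few members ended well below their starting level. CER2 (AT4G24510), needed to extend wax chains of the cuticle, had 33.7, 32.5 and 11.7 RPKM at 0 h, 18.8, 16.9 and 9.90 after 1 h, 71.3, 79.8 and 100.4 at 3 h, 10.1, 9.87 and 16.5 after 6 h, 5.76, 5.21 and 5.46 at 12 h, and 2.17 and 2.34 after 24 h. LOG5 (AT4G35190), of the LONELY GUY family that activates cytokinins, had 8.10, 8.38 and 8.11 RPKM at 0 h, 6.43, 6.23 and 4.44 after 1 h, 24.9, 30.0 and 32.3 at 3 h, 5.02, 8.14 and 7.26 after 6 h, 0.643, 1.55 and 1.03 at 12 h, and 0.689 and 0.776 after 24 h. AT1G77330, annotated as an oxygenase that uses 2-oxoglutarate and iron and held in the ethylene list as an ACC oxidase, had 59.7, 47.6 and 24.2 RPKM at 0 h, 48.2, 47.0 and 28.0 after 1 h, 128, 129.5 and 119 at 3 h, 46.9, 61.1 and 57.1 after 6 h, 10.7, 10.99 and 9.67 at 12 h, and 12.3 and 8.80 after 24 h. In CER2 and AT1G77330, replicate 3 was the lowest library at both 0 h and 1 h. In all 3 genes every 12 h and 24 h library lay below every 0 h library. Their 24 h changes by limma (Benjamini-Hochberg) were -2.91 (SE 0.368, adjusted p 9.75e-06) for CER2, -2.41 (SE 0.198, adjusted p 6.08e-08) for LOG5 and -1.88 (SE 0.295, adjusted p 7.44e-05) for AT1G77330. The uncharacterized AT5G15190 also fell by 24 h, with -1.88 (SE 0.194, adjusted p 8.15e-07). IGMT4 fell at 12 h with -1.41 (SE 0.174, adjusted p 4.51e-06), whereas its change at 24 h of -0.57 missed the threshold without 0 h replicate 3 (adjusted p 0.0766) or 24 h replicate 2 (0.124).

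**Figure D5:**
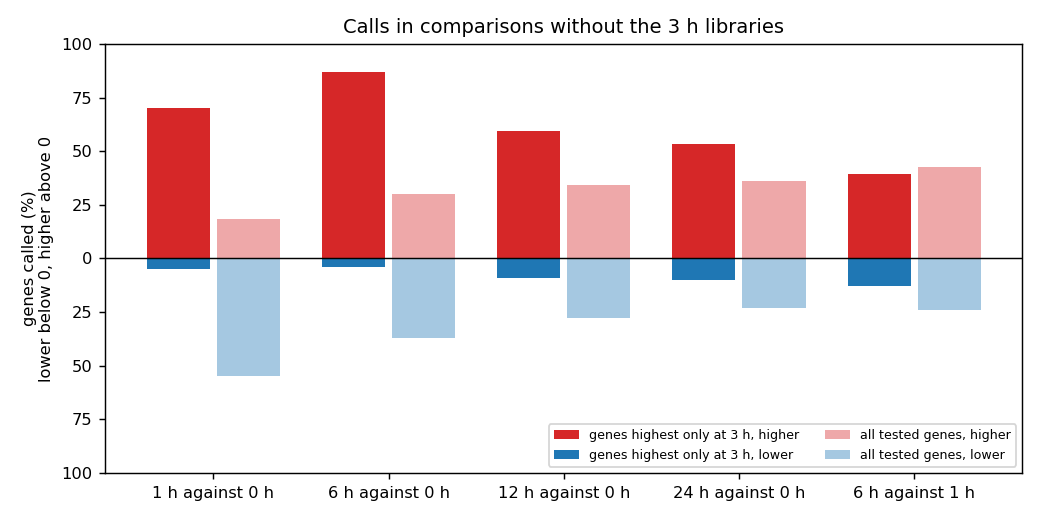
Share of genes called higher (above 0) and lower (below 0) in 5 comparisons between times other than 3 h, for the 101 members (left, full colour) and all 19656 tested genes (right, pale). Members are called higher in 70.3% at 1 h and 87.1% at 6 h, against 18.2% and 30.2% of tested genes, and the bars are closest in 6 h against 1 h, with 39.6% and 42.6%.

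Members differed in whether 1 h or 6 h was higher, and the share higher at 6 h was near that of all tested genes. It is not read as a trait of the members. Against 1 h, 40 members were higher at 6 h, where 42.6% of tested genes were, and 13 were lower, where 23.9% were, leaving 48 not called. With median centring 37 were higher and 21 lower, against 6224 and 6305 of all tested genes. IGMT2 was higher at 6 h than at 1 h by 3.07, PRN by 2.78, PROPEP3 by 2.67 and MLO12 by 2.48 on the log2 scale. AT5G62360 changed by -3.11 (SE 0.337, adjusted p 1.4e-06), RSH2 by -1.76 and CCR2 by -0.81, all lower at 6 h. PROPEP1 was lower at 6 h with -0.73 (SE 0.265, adjusted p 0.0248), while its neighbour PROPEP2 was higher with 1.69 (SE 0.354, adjusted p 0.000629). The PROPEP1 difference missed the threshold without 1 h replicate 1 (adjusted p 0.101) or without 6 h replicate 3 (0.105), where 8 members were lower in each case.

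Counts by role, all against 0 h, stand beside the shares of all tested genes. These were 18.2% higher and 54.7% lower for 1 h; for 6 h they were 30.2% and 37.1%, for 12 h 34.4% and 27.8%, and for 24 h 36.2% and 23.2%. The 4 peptide precursors were all higher at 1 h and at 6 h (against 0 h) in the limma fit with Benjamini-Hochberg adjustment, while 12 h and 24 h each had 2. Of 8 transcription factors and partners, 5 were higher and 1 lower at 1 h, while 24 h had 5 higher. Of 14 receptors, immune and signalling proteins, 11 were higher and 1 lower at 1 h; the 6 h counts were 12 and 1 and the 24 h counts 7 and 0. Of 7 ubiquitin ligase parts, 4 were higher and 1 lower at 1 h; the 6 h counts were 6 and 0. Of 30 metabolic enzymes, 18 were higher and 1 lower at 1 h; the 6 h counts were 25 and 2 and the 24 h counts 15 and 7, the share lower at 24 h being near that of all tested genes. All 12 carriers were higher at 6 h, and 9 were at 24 h. Of 12 hydrolases, chitinases and wall proteins, 7 were higher at 1 h and 9 at 6 h. Of 14 other proteins, 12 were higher at 1 h and all 14 at 6 h. The roles were assigned by hand from the annotation.

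The directions were also looked up in the libraries left out of the choice. As above, these may not come from separate plants, so the shares are not separate support for the calls. Other genes were again picked by the 3 h mean over all libraries. In the left-out libraries of numbers 1, 2 and 3, 83.2%, 82.5% and 92.7% of the genes chosen without them were higher at 1 h than at 0 h, against 30.2%, 29.6% and 30.2% of other genes with at least 5 RPKM at 3 h. At 6 h the shares were 89.1%, 93.8% and 95.8%, against 51.7%, 51.8% and 52.6%. At 12 h they were 73.1%, 71.1% and 79.2%, against 53.1%, 55.7% and 56.6%. For 24 h, which numbers 1 and 2 have, they were 71.4% and 69.1%, against 57.5% and 57.1%.

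In the hormone lists, 25 of the 28 jasmonate genes tested were highest at 1 h and 0 at 3 h. Of 24 ethylene genes 1 was a member, AT1G77330, and 13 of the other 23 were highest at 1 h. The share of all tested genes highest at each time is not given here, so these counts are not read as traits of the lists. The lists of 29 jasmonate, 18 callus and 19 salicylic acid and systemic immunity genes held 0 members; with 101 members among 28642 genes, lists of this size are too short for a count of 0 to set them apart. WRKY70, of the salicylic acid list, averaged 3.21, 14.4, 26.6, 3.45, 1.95 and 0.536 RPKM at 0, 1, 3, 6, 12 and 24 h and missed the rule with a ratio of 1.79.

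Members lay near each other on the chromosomes in several places. Of the 101, 12 were next to another member and 20 lay within 5 genes of one, while members made up 0.368% of the 27444 protein-coding genes in the order. Beside the IGMT, PP2-B and PROPEP rows, neighbours were AT3G48450 with the GDSL lipase gene AT3G48460, and AT3G49970 (of the phototropic NPH3 family) with the F-box gene AT3G49980. AT1G72900 and TIR, both TIR domain genes, had 2 genes between them.

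At the edge of the rule, HB30 (ratio 2.001), AT4G14450 (2.01) and AT5G39670 (2.01) were just inside, and the chitinase gene AT2G43620 (1.98), the sulfotransferase gene ST2A (1.97) and AT4G23271 (1.97) just outside. By level, TPPD, a trehalose phosphatase gene, with 5.58 RPKM at 3 h and PUP8, a purine permease gene, with 5.67 RPKM were just inside. The oleosin gene OLEO4 with 4.72 RPKM and the lipase gene GLIP4 with 3.71 RPKM were just outside.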

How the data were processed

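RNA was sequenced from 17 libraries of cut hypocotyls. The deposited table gives 28642 genes in whole-gene values whose header names no unit; its steps fit RPKM computed by the authors, since 24834 genes came out as whole reads within 0.01 reads and the other 3808 were at 0 everywhere. The genome was TAIR10, per the submitters' processing notes; the aligner, the counter, its strand setting and its rule for reads that match several genes: not given in the sources used here. Depths are in the report.

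From the deposited RPKM, log2(RPKM + 1) was fitted with limma 3.58.1 in R 4.3.3 (trend and robust options, time as factor over all 17 libraries) on 19656 genes with at least 1 RPKM in at least 2 libraries, and p-values were Benjamini-Hochberg adjusted over these genes, with calls below 0.05. Tables were handled with Python 3.11.15, pandas 2.3.3 and numpy 2.4.6. The count test planned for raw counts was not the main test because the table holds RPKM; voom on recovered reads was added after seeing the data and at 1 h called 3613 genes higher and 10702 lower than 0 h, against 3573 and 10755 from log2(RPKM + 1). The fit was tried on simulated reads with the same spread for every gene and changes put only into some genes at 1 h. That simulation held no shift over all genes, so it does not cover the shift seen at 1 h in these data. Members, marker and pathway lists and roles were chosen with earlier results of these data known. The naming rule took the 20 members with a symbol of largest ratio, members on a gene list, the 10 highest 3 h means, the 4 largest called changes per direction and comparison, and the 3 genes nearest each side of the ratio threshold; other genes were named after their values were seen. Sequences and positions came from RefSeq's TAIR10.1.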

Additional observations from a re-analysis of the deposited data

How the results depend on the processing

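The number of genes chosen was 295 with a ratio of 1.5, 29 with a ratio of 3, and 54 where every 3 h library had to pass 2 times every other library. It was 93 to 108 when 1 library was left out. Leaving out 1 library gave, against 0 h, 68 to 75 members higher and 3 to 9 lower for 1 h; for 6 h it gave 84 to 89 and 2 to 5, for 12 h 56 to 60 and 8 to 15, for 24 h 45 to 55 and 6 to 13, and for 6 h against 1 h 38 to 46 and 8 to 14. Counts of all tested genes are not given here for fits with a library left out, so the ranges show only how the calls moved. Members lower at 1 h numbered 2 after median centring and 3 after quantile normalization, where 6673 and 8450 of 19656 tested genes were lower. Members lower at 6 h than at 1 h numbered 21 with median centring, where 6305 tested genes were lower. The cause was not tested. At 1 h, 3 members were lower without 0 h replicate 1 or without 1 h replicate 3, and 9 without 0 h replicate 3. Of 175 called results for named genes, 158 kept their direction and call under all 24 alternatives, 17 lost the call in at least 1, and 0 reversed. Low levels limit genes near the floor of 3 reads.

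The labels do not say that a replicate number marks a shared batch, and 16 of 40 pairs of libraries with the same number had deviations correlated above 0.1 (range -0.173 to 0.343), so the numbers were not taken as pairs. As a hint from the data, the median correlation was 0.073 for the same number and -0.045 for different numbers, and 14 of 17 libraries correlated best with their own number. With a replicate block, 72 members were higher and 6 lower for 1 h. The counts were 88 and 4 for 6 h, 60 and 11 for 12 h, 50 and 12 for 24 h, and 43 and 13 for 6 h against 1 h. Of the 19656 tested genes, the block called 3639 higher and 10912 lower for 1 h, and 6012 and 7383 for 6 h. For 12 h it called 6835 and 5584, for 24 h 7058 and 4639, and for 6 h against 1 h 8449 and 4825. Among the 175 results for named genes the block lost the call of PP2-B13 at 24 h (log2 change 0.60, adjusted p 0.0613).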
